A study of Rattus norvegicus with 13 samples.

Results

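The genes described here encode collagen chains, and their expression was read on Affymetrix arrays from fat of female rats of the outbred Sprague Dawley strain. A gene was taken as a collagen chain when its symbol in the array's annotation was Col, a number, the letter a and a second number, such as Col1a1. This gave 25 chains among 14506 genes, each read from its brightest probe, the one with the highest mean over the 13 arrays. Of the 25, only Col6a4 had several probes, and the chains had 27 probes together. By the structure of the collagen they form, 10 were fibrillar chains, 3 were basement membrane chains (Col4a1, Col4a3 and Col4a4) and 5 were fibril-associated chains of the FACIT class. The remaining 7 were 2 short-chain network chains, 3 transmembrane chains, 1 beaded filament chain (Col6a4) and 1 anchoring fibril chain (Col7a1). RefSeq lists 44 chain symbols for the rat, and the other 19, including Col4a2, Col6a1, Col6a2, Col6a3, Col15a1 and Col18a1, were not analysed here.

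The fathers of the control daughters had eaten standard chow with 9% fat, and those of the other daughters pellets with 43% fat. Per the series' design text, the fathers on the high-fat pellets were heavier, fatter, glucose intolerant and insulin resistant when they were mated at 15 weeks of age. All mothers ate chow, all daughters were weaned to chow at 3 weeks, and fat was taken at 14 weeks, with 1 array for each of 7 control and 6 high-fat daughters. The depot is not named. The labels do not tie daughters to a father or litter, so each p-value reflects only the spread over these animals and may be too small if some were sisters. The daughters did not differ in weight or adiposity by the design text, but those of high-fat fathers were glucose intolerant with a reduced insulin response. Animals are called by their label numbers, which fall into a range of 619 to 631 and a range of 656 to 664, whose meaning is not given.

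Collagens are the main proteins of the extracellular matrix, and each molecule is a triple helix of 3 chains. Fibrillar collagens I, III and V assemble into the fibrils that give tissue its tensile strength, whereas collagen IV forms the sheet-like network of basement membranes, which surround every adipocyte and blood vessel. In fat, fibroblasts and progenitor cells make most of the fibrillar collagen, and the stiffness of this matrix is widely studied because it limits how far adipocytes can enlarge.

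The control regions of 4 chains are printed because Col4a3 and Col4a4, and Col1a2 and its partner Col1a1, varied together over the arrays, while Col4a1 did not vary with Col4a3 or Col4a4 in the same direction (r = -0.42 with each, adjusted permutation p 0.41 and 0.42). Sequences are from RefSeq, build GRCr8, 5′ to 3′ on the strand of the gene named, and end at or before the annotated start of the gene. Col4a3 and Col4a4 lie head to head on chromosome 9 and are read away from each other, with 412 bases between their starts. Col4a3 is shown at chr9:91323740-91323989 (plus strand) and Col4a4 at chr9:91323578-91323827 (minus strand). Capitals mark the 88 bases at chr9:91323740-91323827 that both windows hold, each on its own strand.
Col4a3: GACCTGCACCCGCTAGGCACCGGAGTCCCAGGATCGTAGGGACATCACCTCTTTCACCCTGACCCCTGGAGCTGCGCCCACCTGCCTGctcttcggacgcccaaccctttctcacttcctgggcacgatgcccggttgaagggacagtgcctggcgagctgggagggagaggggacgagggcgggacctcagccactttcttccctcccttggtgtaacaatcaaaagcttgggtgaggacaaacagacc
Col4a4: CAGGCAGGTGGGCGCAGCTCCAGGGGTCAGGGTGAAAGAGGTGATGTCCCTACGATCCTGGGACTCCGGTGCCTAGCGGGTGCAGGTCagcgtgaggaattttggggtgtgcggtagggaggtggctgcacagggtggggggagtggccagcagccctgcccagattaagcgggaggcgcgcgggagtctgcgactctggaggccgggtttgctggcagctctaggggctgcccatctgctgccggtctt

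Col4a1 and Col4a2 are also a head to head pair, with 76 bases between their starts on chromosome 16. That stretch, chr16:84885521-84885596 on the strand of Col4a1, is shown with a GC box (CCGCCC, which reads GGGCGG on the other strand) in capitals.
Col4a1: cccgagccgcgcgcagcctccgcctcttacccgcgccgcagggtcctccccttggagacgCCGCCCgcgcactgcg

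For Col1a2, 86 bases at chr4:33518307-33518392 (plus strand) are shown, with a CCAAT box read on the other strand (ATTGG) and a TATA box (TATAAA) in capitals. They begin 221 and 170 bases before the start that RefSeq gives. A TATA box usually lies closer to where transcription begins, so the start used in the cell may lie upstream of the annotated one, and the bases between were not printed.
Col1a2: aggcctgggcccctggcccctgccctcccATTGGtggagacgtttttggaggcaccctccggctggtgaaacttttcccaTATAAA

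RefSeq's promoter table held 1 window for each of 20 chains, and Col1a1, Col2a1, Col3a1, Col12a1 and Col14a1 had none. Both strands of the 250 bases before each start were searched for these letters, and no motif contains another. The CCAAT box (CCAAT or ATTGG) was found in 7 of the 20 windows (35.0%) and in 34.0% of 33469 windows of all genes. The GC box (GGGCGG or CCGCCC) was found in 11 chain windows (55.0%) and in 30.5% of all windows. The TATA box (TATAAA or TTTATA) was found in 4 chain windows (20%), those of Col1a2, Col10a1, Col13a1 and Col17a1, and in 12.9% of all windows. These are descriptions of letters in a window.

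The deposited values are log2 levels, on which a difference of 1 is a doubling, and they ran from 3.24 to 14.54. Array medians lay between 7.66 and 7.72, and the standard deviation (SD) of all values on an array lay between 1.78 and 1.96. Adipocyte markers were far above the array medians, as the labelled tissue requires. The mean of 12 of them was between 12.14 and 12.39 in every array, and Plin1, the lipid droplet coat protein of adipocytes, averaged 12.28 in control and 12.46 in high-fat daughters. Control 658 stood apart, with a mean of 11.12 over 12 smooth muscle and pericyte markers against 9.88 to 10.34 in the other 12 arrays, and with the lowest means of fibroblast (10.14) and endothelial markers (9.72). Smooth muscle genes such as Cnn1 (11.73) and Myh11 (11.92) were highest in it. The pericyte genes Pdgfrb (10.03) and Notch3 (9.85) were lowest in it, and Rgs5 (11.77) and Cspg4 (9.23) lay within the range of the others. Skeletal muscle markers averaged 9.09 to 11.97 in controls 662 and 664 and high-fat 619 and 629, and 7.20 to 7.33 in the other 9 arrays. In whole tissue, fewer cells of a type and less RNA per cell cannot be told apart.

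The collagen chains as a class showed no difference between daughters of high-fat and control fathers that passed the test. Each difference is the high-fat mean minus the control mean on the log2 scale, with the standard error (SE) from limma, a linear model fitted to all 14506 genes, and p-values adjusted by the Benjamini-Hochberg method over all of them. At an adjusted p under 0.05, 0 of 25 chains were called, against 0% of all genes, and the smallest adjusted p was 0.53. At an unadjusted p under 0.05, 1 of 25 chains (4%) was called, Col12a1 with a lower mean, against 7.96% of all genes, and an unmoderated linear model gave the same 1 chain. No chain with a higher mean reached that p, against 5.42% of all genes, and 1 with a lower mean did, against 2.54%. The means were higher in high-fat daughters for 9 chains (36%) and lower for 16, whereas 58.0% of all genes had the higher mean in high-fat daughters. The median difference was -0.01 over the chains and 0.03 over all genes, and single chains ranged from -0.30 to 0.15.

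**Figure D1:**
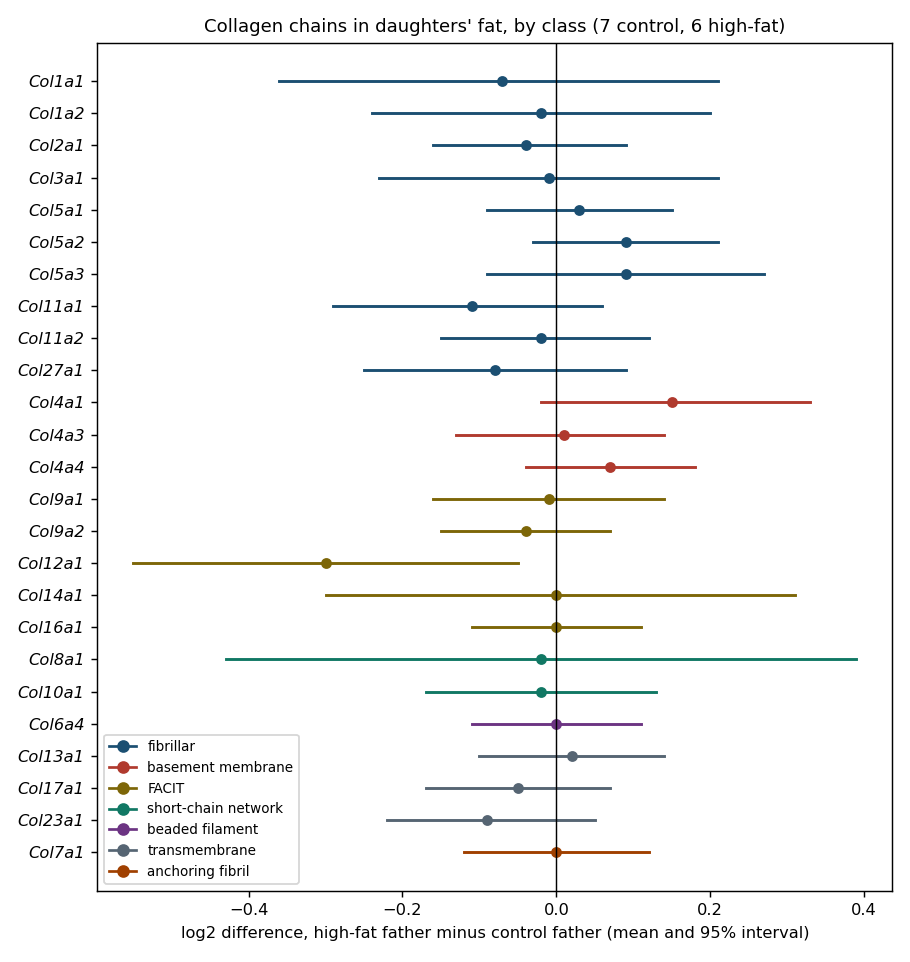
The plot of differences gives, for each of the 25 chains, the log2 difference of high-fat minus control daughters (horizontal axis, points) with its 95% interval from limma (lines), coloured by class. The interval of Col12a1, -0.55 to -0.05, is the only one that leaves out 0, and the 3 basement membrane chains have their points at or above 0.01.

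Among the 10 fibrillar chains 3 had higher means and 7 had lower means in high-fat daughters, with a median difference of -0.02, and none had an unadjusted p under 0.05. Col1a1 and Col1a2 encode the chains of collagen I, the most abundant fibril protein of connective tissue. The Col1a1 level was 11.62, 11.92 and 12.37 (lowest, median and highest) in control daughters and 11.54, 11.85 and 12.29 in high-fat daughters. The groups overlapped over nearly their whole range, and the highest array of each group, control 664 and high-fat 663, came from the same number range. The difference for Col1a1 was -0.07 ± 0.13 (SE, n = 7 and 6), with a 95% interval of -0.36 to 0.21 and a limma adjusted p of 0.79. The Col1a2 level was 10.94, 11.16 and 11.54 in control daughters and 10.99, 11.15 and 11.51 in high-fat daughters. Both extremes of Col1a2 lay in the control group, in animals 658 and 664, and its difference was -0.02 ± 0.10.

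Col3a1 encodes collagen III, which forms thin fibrils with collagen I. Its level was 10.87, 11.19 and 11.45 in control daughters and 10.93, 11.15 and 11.38 in high-fat daughters. Here too the high-fat values lay within the range of the controls, with a difference of -0.01 ± 0.10 (95% interval -0.23 to 0.21). Collagen V starts fibrils and sets their diameter. The Col5a1 level was 9.11, 9.19 and 9.25 in control daughters and 9.09, 9.22 and 9.42 in high-fat daughters, and the difference was 0.03 ± 0.06. The Col5a2 level was 9.51, 9.69 and 9.79 in control daughters and 9.64, 9.77 and 9.84 in high-fat daughters. Of the 6 high-fat daughters 5 lay above the control mean of Col5a2, but only 1 lay above all controls, and the difference was 0.09 ± 0.06 (limma adjusted p 0.53). The Col5a3 level was 8.91, 9.18 and 9.38 in control daughters and 9.07, 9.28 and 9.49 in high-fat daughters, with a difference of 0.09 ± 0.08.

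The other 4 fibrillar chains are best known from cartilage, where collagens II and XI form the fibrils. The Col11a1 level was 7.85, 7.95 and 8.05 in control daughters and 7.64, 7.81 and 8.10 in high-fat daughters. High-fat animals lay on both sides of the controls, 3 below all of them and 2 above, and the difference was -0.11 ± 0.08 (limma adjusted p 0.55). The Col27a1 level was 8.05, 8.15 and 8.41 in control daughters and 7.96, 8.04 and 8.44 in high-fat daughters. Although high-fat 660 was the highest of all arrays for Col27a1, 4 of the 6 high-fat daughters lay below every control. The difference for Col27a1 was -0.08 ± 0.08, and without high-fat 660 it was -0.15 ± 0.06 (unadjusted limma p 0.032, adjusted 0.28). Without control 658, the highest control, it was -0.04 ± 0.07 (unadjusted limma p 0.60). With the array SD as a covariate it was 0.03 ± 0.05. Col2a1 and Col11a2 differed by -0.04 ± 0.06 and -0.02 ± 0.06. All 10 measured cartilage and bone markers also had lower means in high-fat daughters, with a median difference of -0.05 and none with an unadjusted p under 0.05. Their mean was 7.06 to 7.30 in control and 7.05 to 7.26 in high-fat daughters, below the array medians of 7.66 to 7.72. Ibsp and Hapln1 averaged 6.11 and 6.08 in controls, below Sry (6.38 to 6.62), a Y-linked gene that female rats lack, and the other markers averaged above it. With group means removed, the 4 chains had r of 0.55 to 0.91 with this marker mean and of -0.84 to -0.53 with the array SD. Such values were not particular to them. They were 0.86 and -0.53 for Col7a1, 0.73 and -0.53 for Col16a1, and 0.59 and -0.77 for Col6a4. Other chains differed, such as Col14a1 with -0.22 and 0.48. The part of the marker mean or of the array SD in the 4 chains was not tested.

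The 3 basement membrane chains all had a higher mean in high-fat daughters, with a median difference of 0.07, and none had an unadjusted p under 0.05. With 58.0% of all genes higher in high-fat daughters, this direction in 3 chains is not particular to them. Col4a1 encodes a chain of the collagen IV present in nearly all basement membranes, and its usual partner Col4a2 was not analysed here. The Col4a1 level was 9.38, 9.64 and 9.84 in control daughters and 9.61, 9.77 and 9.96 in high-fat daughters. The lowest values, 9.38 and 9.43, were in controls 658 and 662, and high-fat 620 and 624 (9.96 and 9.91) lay above all controls. The difference was 0.15 ± 0.08, with a 95% interval of -0.02 to 0.33, an unadjusted p of 0.082 and a limma adjusted p of 0.53. Without control 658, the array with the lowest endothelial marker mean, it was 0.11 ± 0.08. The endothelial marker mean was 9.72 to 10.27 in control and 10.09 to 10.39 in high-fat daughters, with all 12 markers higher in high-fat daughters (median difference 0.10, none with an unadjusted p under 0.05). Of 12 adipocyte markers 11 were higher in high-fat daughters (median difference 0.10), 4 of them (33.3%) with an unadjusted p under 0.05, against 7.96% of all genes. The lowest Col4a1 levels of both groups lay in arrays with a high mean of brown fat markers. That mean over 6 genes was 8.21 and 8.70 in controls 658 and 662, 9.07 and 8.49 in high-fat 629 and 663, and 6.97 to 7.56 in the other 9 arrays. Not all 6 genes rose there, and Elovl3 was 6.22 and 6.13 in high-fat 629 and 663, against 6.04 to 6.82 in controls. The part of these cell types in the Col4a1 difference was not tested.

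Col4a3 and Col4a4 encode chains of the collagen IV best known from the basement membranes of kidney and ear. The Col4a4 level was 7.82, 7.99 and 8.10 in control daughters and 8.02, 8.05 and 8.10 in high-fat daughters. All 6 high-fat daughters lay above the control mean of Col4a4, but the range of the controls held most of them, and the difference was 0.07 ± 0.05 (95% interval -0.04 to 0.18). The Col4a3 level was 7.76, 8.04 and 8.20 in control daughters and 8.0, 8.04 and 8.07 in high-fat daughters, with a difference of 0.01 ± 0.06. For both chains the controls were more spread than the high-fat daughters, with SDs of 0.14 and 0.02 for Col4a3, and control 664 was the lowest array.

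**Figure D2:**
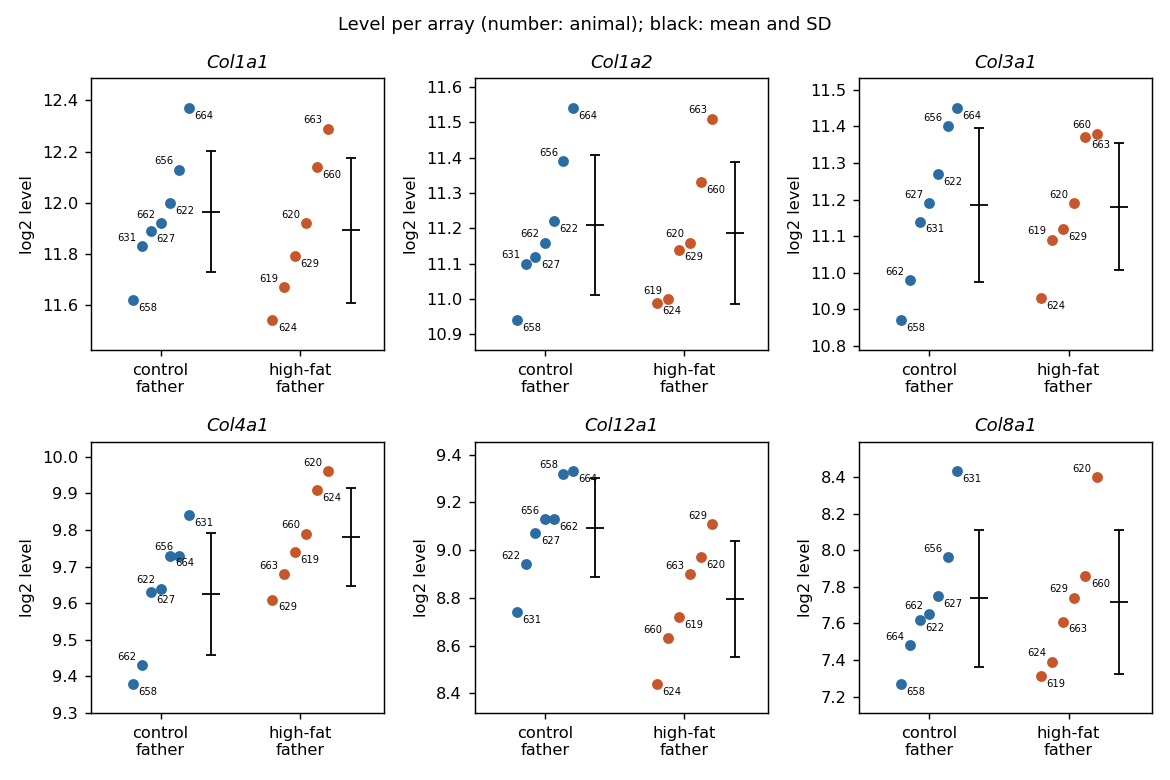
The plot of levels by array shows the log2 level of 6 chains (vertical axes, each with its own scale) in each of 7 control (blue) and 6 high-fat daughters (orange), labelled with the animal's number, with the mean and SD of each group in black. The groups overlap in all 6 chains, and for Col12a1 3 high-fat daughters, animals 619, 624 and 660, lie below every control.

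Fibrillar chains were set against basement membrane chains as the mean log2 level of the 10 fibrillar chains minus that of the 3 basement membrane chains in each array. This index was 0.95, 0.95, 0.95, 1.03, 0.94, 1.02 and 1.20 in controls 622, 627, 631, 656, 658, 662 and 664. It was 0.81, 0.83, 0.80, 0.89, 1.11 and 1.05 in high-fat daughters 619, 620, 624, 629, 660 and 663. The 4 high-fat daughters numbered 619 to 629 lay below all controls, and the other 2 each lay above 6 of the 7 controls. The group means were 1.01 ± 0.09 (SD, n = 7) and 0.92 ± 0.13 (SD, n = 6). Their difference of -0.09 was given no test, because the chains were chosen with results of these data known. Within animals 619 to 631 the difference was -0.12, and within animals 656 to 664 it was 0.03.

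The 5 FACIT chains, which sit on the surface of fibrils, included the only chain with an unadjusted p under 0.05. Col12a1 encodes collagen XII, which binds collagen I fibrils and is found in dense connective tissue. The Col12a1 level was 8.74, 9.13 and 9.33 in control daughters and 8.44, 8.81 and 9.11 in high-fat daughters. Of the high-fat daughters 5 lay below the control mean and 3 below every control, while high-fat 629 (9.11) lay among the controls. The difference was -0.30 ± 0.12, with a 95% interval of -0.55 to -0.05, an unadjusted p of 0.022 and a limma adjusted p of 0.53, so it did not pass the test over all genes. Without high-fat 624, the lowest array, the difference was -0.23 ± 0.11 with an unadjusted p of 0.058.

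Most markers of mesothelium, the cell layer that covers visceral fat, also had lower means in high-fat daughters. The mean of 10 measured mesothelial markers was 8.56 ± 0.44 (SD) in control daughters, from 7.81 to 9.18, and 8.24 ± 0.41 in high-fat daughters, from 7.82 to 8.93. Of these markers 9 had a lower mean in high-fat daughters, 2 of the 10 (20%) with an unadjusted p under 0.05 against 7.96% of all genes, and the median difference was -0.36. With the mesothelial mean as a covariate the Col12a1 difference was -0.21 ± 0.11 (unadjusted p 0.084). With the skeletal muscle mean as a covariate it was -0.29 ± 0.11 (unadjusted p 0.016). The mesothelial list was not the only marker list that Col12a1 followed. With group means removed, its r was 0.62 with the brown fat marker mean and 0.56 with the mesothelial mean. It was 0.50 with the skeletal muscle mean and -0.49 with the adipocyte mean. The brown fat and muscle lists may not be separate measures. In control 664, rich in muscle markers, the brown fat list's Cox8b was 8.89 where Ucp1 was 6.11. A covariate fit does not test the part of a cell type, and none was run with the brown fat or adipocyte mean. The parts of these cell types in the Col12a1 difference were not tested.

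Col14a1 encodes collagen XIV, a fibril-associated chain that limits fibril growth. Its level was 10.83, 11.41 and 11.52 in control daughters and 10.78, 11.38 and 11.74 in high-fat daughters. The lowest arrays were control 658 and high-fat 624 and the highest was high-fat 629, so each group held a low animal, and the difference was 0.00 ± 0.14. The differences of Col9a1, Col9a2 and Col16a1 were -0.01, -0.04 and 0.00.

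Of the 7 remaining chains none had an unadjusted p under 0.05, and all 7 differed by -0.09 to 0.02. Col8a1 encodes collagen VIII, a short-chain collagen of vessel walls, and varied most of all 25 chains. Its level was 7.27, 7.65 and 8.43 in control daughters and 7.31, 7.67 and 8.40 in high-fat daughters. A single animal in each group stood high, control 631 and high-fat 620, and the highest level was 2.24 times the lowest. The SD within groups was 0.38, and the difference of -0.02 ± 0.19 had a 95% interval of -0.43 to 0.39. The transmembrane chain Col23a1 had 7.96, 7.96 and 8.09 in control daughters and 7.65, 7.96 and 8.05 in high-fat daughters. Only high-fat 619 was far below the rest, and the difference was -0.09 ± 0.06 with it and -0.03 ± 0.05 without it. Col10a1, known from hypertrophic cartilage, differed by -0.02. The transmembrane chains Col13a1 and Col17a1 differed by 0.02 and -0.05, and Col7a1, which anchors epithelia, by 0.00. Col6a4 differed by 0.00 on its brightest probe and by -0.10 and -0.11 on its other 2 probes.

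**Figure D3:**
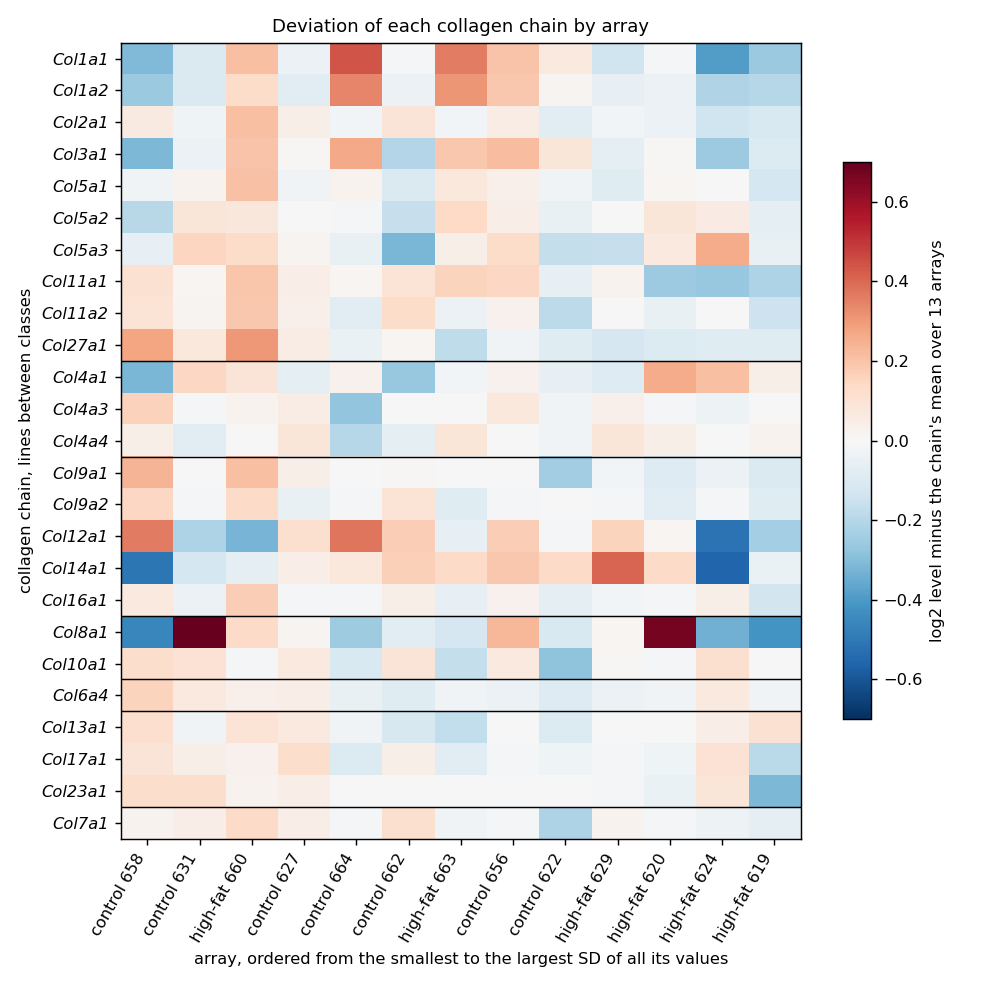
The heat map shows, for each chain (rows, grouped by class) and array (columns, ordered from the smallest to the largest SD of all values on the array), the log2 level minus the chain's mean over the 13 arrays. Col1a1, Col1a2 and Col3a1 share their high (red) and low (blue) arrays, and control 658 and high-fat 660 each hold the highest value of 7 chains.

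The comparison was repeated within each of the 2 number ranges of the animals. Among animals 619 to 631 (3 control, 4 high-fat) 9 chains had higher means and 16 had lower means in high-fat daughters. Among animals 656 to 664 (4 control, 2 high-fat) 19 were higher and 6 lower. The median difference over all genes was 0.02 in each range. High-fat 660, which holds the highest value of 7 chains, is 1 of the 2 high-fat arrays of the later range. At an unadjusted limma p under 0.05, 0 chains were called in animals 619 to 631, against 13.7% of all genes. In animals 656 to 664, 1 chain (Col12a1) was called, against 0.931% of all genes. Col1a1 differed by -0.18 ± 0.10 in the first range and by 0.20 ± 0.20 in the second. Col3a1 likewise differed by -0.12 ± 0.08 and by 0.20 ± 0.19, so both chains had opposite signs in the 2 ranges. Col12a1 had the same sign in both, -0.11 ± 0.16 and -0.46 ± 0.13, and Col4a1 also, 0.10 ± 0.10 and 0.17 ± 0.14. The test of the difference between ranges, limma's interaction of range and father's diet, called 0 of 25 chains at an adjusted p under 0.05, against 0% of all genes, with an adjusted p of 1 for each. At an unadjusted p under 0.05 limma called 1 of 25, Col11a1 (limma p 0.049), against 3.47% of all genes. Col11a1 differed by -0.18 ± 0.09 in animals 619 to 631 and by 0.09 ± 0.09 in animals 656 to 664.

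Col1a1 varied together with Col1a2 and with Col3a1 from animal to animal, also in the 3 alternatives tried for these pairs. The pairs of collagens IV (Col4a3 and Col4a4), V, IX and XI lost their call when the 4 arrays rich in skeletal muscle markers were left out, which also leaves fewer arrays to test. There r fell from 0.85 to 0.56 for collagen IV and from 0.60 to 0.25 for collagen V. For collagens IX (0.70 to 0.72) and XI (0.61 to 0.57) it changed little, so the call lost there does not by itself show a lost relation. With the array SD removed, however, an alternative chosen after seeing the data, r was 0.31 for collagen IX and 0.42 for collagen XI. Neither was called then (adjusted permutation p 0.35 and 0.21). Correlations were taken over the 13 arrays after the mean of each group was subtracted, for 7 pairs, with 100000 permutations and p-values adjusted over the 7. Col1a1 and Col1a2, the partners in collagen I, had r = 0.98 (adjusted permutation p 7.00e-05, from the smallest p the permutations can give, 1.00e-05) and rho = 0.97. Without the 2 arrays farthest from the median of Col1a1 r was again 0.98, and it was 0.93 and 0.99 within the 2 number ranges. Across the 13 arrays the Col1a1 level spanned 0.83 log2 units, 1.78 times from lowest to highest, and Col1a2 spanned 1.51 times in nearly the same order. Col1a1 and Col3a1, which are coexpressed in fibroblasts, had r = 0.92 (adjusted permutation p 7.00e-05) and rho = 0.91, and 0.86 without the 2 farthest arrays.

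Col4a3 and Col4a4, the head to head pair whose shared bases are in capitals above, had r = 0.85 (adjusted permutation p 0.0026) and rho = 0.61 (adjusted p 0.049). This relation rested partly on controls 664 and 658, without which r was 0.60 (permutation p 0.052). With the 4 arrays rich in skeletal muscle markers left out, among them control 664, r was 0.56 (exact permutation p 0.11). Col5a1 and Col5a2 had r = 0.60 and rho = 0.68 (adjusted permutation p 0.032 and 0.030), and r = 0.76 without the 2 farthest arrays. Within animals 656 to 664 its r was 0.41, and with the 4 muscle-rich arrays left out it was 0.25 (adjusted exact permutation p 0.56), which ends the call. Col11a1 and Col11a2 had r = 0.61 (adjusted permutation p 0.032) and rho = 0.57 (0.064), and 0.57 (adjusted exact permutation p 0.16) with the muscle-rich arrays left out. Col9a1 and Col9a2 had r = 0.70 (adjusted permutation p 0.016) but rho = 0.28 (0.41), and r was -0.13 within animals 619 to 631, so that this relation did not hold by rank or within both ranges. Col1a1 and Col4a1, a fibrillar and a basement membrane chain, had r = 0.17 (adjusted permutation p 0.58) and rho = 0.10. Within animals 656 to 664 their r was 0.82 and within animals 619 to 631 it was -0.15.

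**Figure D4:**
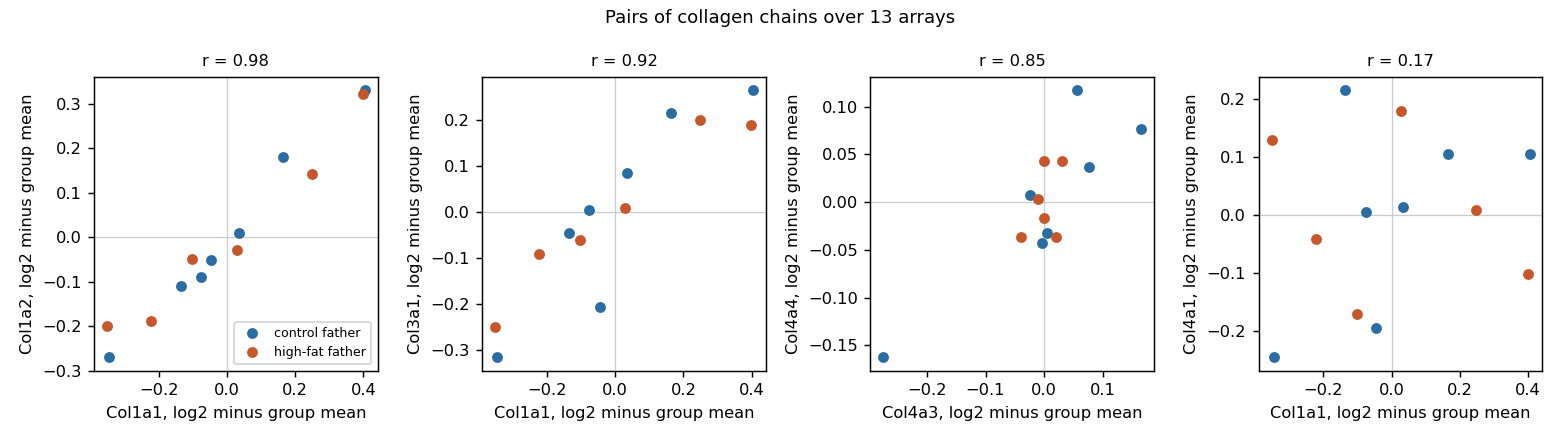
The scatter plots set the log2 level of one chain against another over the 13 arrays, each minus the mean of its group (blue control, orange high-fat), with r above each panel. Col1a1 follows Col1a2 (r = 0.98) and Col3a1 (r = 0.92) along the whole range, Col4a3 and Col4a4 (r = 0.85) have 1 array, control 664, far from the rest, and Col1a1 and Col4a1 (r = 0.17) show no common order.

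Over all 300 pairs of the 25 chains the median r was 0.18, and 13 pairs had an adjusted permutation p under 0.05, 12 of them positive. These were the 3 pairs among Col1a1, Col1a2 and Col3a1, the pair of Col4a3 and Col4a4, and 8 pairs among Col2a1, Col7a1, Col9a1, Col9a2, Col11a1, Col11a2, Col16a1, Col17a1, Col23a1 and Col27a1. The negative pair was Col6a4 and Col14a1 (r = -0.80). With the SD of each array also removed 6 pairs kept an adjusted p under 0.05: the first 4, Col7a1 with Col11a2 (r = 0.88), and Col4a1 with Col5a3 (r = 0.83), which had not passed before. The highest values of the chains gathered in few arrays, 7 chains in control 658 and 7 in high-fat 660, which are among the 3 arrays with the smallest SD.

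The genes outside the collagens whose values most resembled the mean of Col1a1, Col1a2 and Col3a1 over the 13 arrays, group means removed, were led by Fkbp10 (r = 0.92), a chaperone of the endoplasmic reticulum needed for collagen crosslinking. Emb, Ly6e, Gpr171, Ifngr1, Ccna2, Rcn1 and Ndrg3 followed with r from 0.88 to 0.81. Fkbp10 averaged 9.90 in both groups, with a difference of 0.00 ± 0.11. For Col4a1 the nearest genes were Map4 (r = 0.97), a microtubule-associated protein, then Anxa5 and Wwtr1 (both 0.95), Leprotl1, Piezo1 and Hm13 (all 0.93), and Cybc1 and Tagln2 (both 0.92). These genes were picked from all 14506 for this likeness, and the values are descriptions.

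Genes that fold, process, break down or bind collagen were counted by role, and none passed limma's test at an adjusted p under 0.05. Of 18 genes for folding and modification in the endoplasmic reticulum 10 had higher means and 8 had lower means in high-fat daughters, with a median difference of 0.03 and 2 (11.1%) with an unadjusted p under 0.05, against 7.96% of all genes. P4ha3, a catalytic subunit of prolyl hydroxylase, had 7.32, 8.09 and 9.06 in control daughters and a difference of -0.50 ± 0.23. Colgalt1, which adds galactose to collagen, differed by 0.20 ± 0.09, and Fkbp14, a prolyl isomerase, by 0.20 ± 0.11. Of 13 genes for processing and crosslinking 4 were higher and 9 lower, with a median of -0.02 and 1 (7.69%) with an unadjusted p under 0.05, close to the share of all genes. That one was Adamts3, a protease that removes the amino-terminal propeptide of procollagen. Adamts3 averaged 7.01 ± 0.33 (SD) in control and 6.61 ± 0.12 in high-fat daughters, a difference of -0.39 ± 0.13 (unadjusted limma p 0.0088, adjusted 0.53). Its levels, 6.60 to 7.61 in control and 6.44 to 6.80 in high-fat daughters, overlapped those of the absent gene Sry (6.38 to 6.62). Whether Adamts3 lies above its own background was not assessed. Loxl4, a lysyl oxidase relative, differed by -0.11 ± 0.06, and Adamts14, another procollagen protease, by 0.04 ± 0.04.

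Of 18 genes for collagen breakdown 5 were higher and 13 lower in high-fat daughters, with a median difference of -0.04, and 5 had an unadjusted p under 0.05 (1 higher, 4 lower), a share of 27.8% beside 7.96% of all genes, which was given no test. The collagenase Mmp1 averaged 5.31 ± 0.23 (SD) and 5.06 ± 0.05, a difference of -0.25 ± 0.09. Mmp12, the macrophage elastase, differed by -0.25 ± 0.09, and Mmp8, the neutrophil collagenase, by -0.18 ± 0.07. The higher gene was Fap, a protease of activated fibroblasts, with 8.09 ± 0.36 (SD) in control and 8.46 ± 0.29 in high-fat daughters, a difference of 0.37 ± 0.17 (unadjusted limma p 0.042), and it was named after its value was seen. All 9 genes listed as T cell markers had lower means in high-fat daughters (median difference -0.14), whereas 58.0% of all genes had higher means. The mean of the 9 was 7.43 to 8.06 in control and 7.37 to 7.71 in high-fat daughters. Of the 9, 1 (11.1%) had an unadjusted limma p under 0.05, against 7.96% of all genes. This was Cd3d, with 6.08 to 6.48 in control and 5.93 to 6.11 in high-fat daughters, near or below Sry (6.38 to 6.62). Another of the 9, Cd4, averaged 12.05 in control daughters, where no other exceeded 7.82, so Cd4 may not stand for T cells. Of 11 macrophage markers 6 were higher and 5 lower (median difference 0.04), none with an unadjusted p under 0.05. The part of T cells or macrophages in the protease differences was not tested. Sry, a Y-linked gene that female rats lack, read 6.38 to 6.62 over the 13 arrays. Mmp1 (5.01 to 5.74) and Mmp8 (5.76 to 6.28) lay below those levels in every array. Mmp12 (5.83 to 6.65) and Mmp9 (6.30 to 6.83) overlapped them. The 4 lower genes thus read near or below the level of an absent gene, and whether they lie above their own background was not assessed. Of 8 receptor genes 4 were higher and 4 lower, with a median of 0.00 and 1 (12.5%) with an unadjusted p under 0.05, against 7.96% of all genes. Lair1, an inhibitory collagen receptor of leukocytes, differed by -0.26 ± 0.12, Itgb1, the shared chain of collagen-binding integrins, by 0.11 ± 0.07, and Itga11, an integrin chain of fibroblasts, by -0.10 ± 0.11.

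Of 22 other proteins of the fibrillar matrix 7 were higher and 15 lower in high-fat daughters, with a median of -0.07 against 0.03 for all genes, and 3 (13.6%) had an unadjusted p under 0.05, all lower, against 7.96% of all genes and 2.54% lower. Bgn, the small proteoglycan biglycan that binds collagen fibrils, averaged 12.91 ± 0.20 (SD) in control and 12.67 ± 0.20 in high-fat daughters, a difference of -0.24 ± 0.10 (unadjusted p 0.033). Mfap4, a microfibril protein, differed by -0.53 ± 0.22, and Fbn2, a fibrillin, by -0.15 ± 0.06. Of 9 laminins, nidogens and other basement membrane genes 6 were higher and 3 lower, with a median of 0.04 and 1 (11.1%) with an unadjusted p under 0.05, again against 7.96%. Lamb3, a laminin chain of epithelia, differed by -0.18 ± 0.08, Lamc1, the most widespread laminin gamma chain, by 0.10 ± 0.07, and Nid2, a nidogen, by 0.27 ± 0.19. Of 19 genes of TGF-beta signalling, the pathway best known for raising collagen synthesis, 11 were higher and 8 lower, with a median of 0.01 and none with an unadjusted p under 0.05. Inhba, an activin subunit, differed by -0.28 ± 0.16, Smad6, an inhibitor of the pathway, by 0.29 ± 0.19, and the ligand Tgfb2 by 0.16 ± 0.11.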

How the data were processed

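Fat RNA of 13 rats was hybridised to Affymetrix arrays as biotin-labelled cRNA, 1 array per animal. The deposited table holds log2 levels of 29214 probes. RMA (background correction, normalization between arrays and probe summaries) and the package Partek were applied by the authors, per the submitters' processing notes. Versions, filters and step order: not given in the sources used here. RMA pulls arrays toward one distribution. Background per probe was not assessed and no filter on dim probes was set. The number of arrays limits the precision.

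The platform annotation lists 15633 probes, 15310 with 1 symbol and 323 with several, and probes not listed stay unnamed. Probes with 1 symbol were used, and the brightest probe per symbol was kept for 527 genes with several, which left 14506 genes. All 25 chains matched their RefSeq symbol (GRCr8) by Entrez number. Columns of other samples numbered 0.

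Groups came from the sample titles. They were compared with limma 3.58.1 (lmFit, eBayes, two-sided, no covariate) in R 4.3.3, with p-values adjusted by Benjamini-Hochberg across the 14506 genes and called under 0.05. Correlations used 100000 two-sided permutations, or all arrangements where fewer than 10 arrays remained. Of 12 pairs listed, 7 had both chains measured.

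The members, gene lists and tests were chosen with earlier results of these data known, and lists are described by counts and medians without a test. Values are given in full for the chains of collagens I, III, V and the first of IV, the 4 chains with the smallest p in each direction and the 5 with the largest spread, with 3 genes per partner list and 8 genes most like each pattern. Some other chains were described after their values were seen. On simulated data with 5 sets of 200 changed genes among the 14506, limma recovered 25.4% of changes of 0.25 log2 units, 74% of 0.5 and 96.1% of 1. The simulated noise was drawn separately for each gene. It left out the variation that genes of the real arrays share, such as that of muscle markers, so the shares may not hold for the real data. Alternatives were renewed quantile normalization, median centring, a level filter, probe means, other variance models, array weights, covariates, subsets of arrays and leaving out each array.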

Additional observations from a re-analysis of the deposited data

Results flagged for a closer look

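In 7 of 50 groups of values (25 chains in each of the 2 groups of daughters) 1 array lay far from the others of its group by Dixon's criterion, which chance meets in about 1 in 20 groups. High-fat 660 was the high array for 4 chains. It had a Col2a1 level of 8.95 against 8.60 to 8.72 in the other high-fat daughters. Its Col9a1 level was 7.93 against 7.62 to 7.72, and its Col9a2 level was 8.06 against 7.84 to 7.91. Its Col27a1 level was 8.44 against 7.96 to 8.05. This array had an SD over all genes of 1.863, the third smallest of the 13, and the part of that in these values was not tested. High-fat 619 had a low Col23a1 level of 7.65 against 7.92 to 8.05.

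Among controls, animal 664 had a Col4a3 level of 7.76 against 8.01 to 8.20, and animal 622 had a Col7a1 level of 7.85 against 8.05 to 8.18.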

How the results depend on the processing

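The count of chains with an adjusted p under 0.05 was 0 in each of 16 alternatives, an adjusted p of 0.1 among them, and with each array left out. At an unadjusted p under 0.05 the count was 1 in 11 of 15 alternatives, 3 with array weights (Col4a1, Col11a1 and Col12a1), and 0 in animals 619 to 631, with the array SD as a covariate and with the mesothelial mean as a covariate. With an array left out it ran from 0 (without high-fat 624) to 2 (Col4a1 gained without control 631 or high-fat 629, Col27a1 without high-fat 660). Col12a1 kept its negative sign throughout, from -0.46 to -0.11, with p 0.051 under the array SD covariate, and Col4a1 stayed between 0.09 and 0.19, with p 0.044 under array weights. The causes were not tested.

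In animals 656 to 664 alone the fibrillar minus basement membrane difference was 0.03 and the fibrillar median 0.16. Among genes above the median level, where 8 fibrillar chains and only Col4a1 of the basement membrane chains were left, the basement membrane median was 0.15.

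Signs of differences near 0 turned. In animals 656 to 664 the difference was 0.20 for Col1a1, 0.16 for Col1a2, 0.20 for Col3a1, 0.14 for Col8a1, 0.09 for Col11a1 and 0.01 for Col27a1, and in animals 619 to 631 it was -0.03 for Col14a1 and -0.04 for Col5a1. Without the 4 arrays with most muscle signal it was 0.08 for Col1a1, 0.09 for Col1a2, 0.04 for Col3a1, 0.01 for Col8a1 and -0.04 for Col14a1. Without the 3 arrays of smallest SD it was -0.11 for Col14a1 and below 0 but 0.00 when rounded for Col5a1. With median centring it was 0.00 for Col1a2, 0.02 for Col3a1 and 0.00 for Col8a1, and with renewed quantile normalization -0.04 for Col14a1, -0.03 for Col5a1 and 0.01 for Col8a1. With the array SD as a covariate it was -0.12 for Col14a1 and 0.03 for Col27a1, with array weights -0.09 for Col14a1 and 0.02 for Col8a1. With the mesothelial mean it was 0.01 for Col1a2 and Col3a1, and with the number range 0.03 for Col1a2 and 0.02 for Col3a1. With 1 array left out the ranges were -0.08 to 0.03 for Col1a2, -0.06 to 0.04 for Col3a1, -0.01 to 0.06 for Col5a1, -0.15 to 0.10 for Col8a1 and -0.08 to 0.11 for Col14a1.

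Without the 4 muscle arrays r was 0.57 for Col11a1 with Col11a2, 0.56 for Col4a3 with Col4a4, 0.25 for Col5a1 with Col5a2, 0.72 for Col9a1 with Col9a2 and -0.05 for Col1a1 with Col4a1, all with an adjusted exact permutation p above 0.05. With median centring it was 0.55 for Col11a1 with Col11a2. With the array SD removed, an alternative chosen after seeing the data, it was 0.42 for that pair and 0.31 for Col9a1 with Col9a2. No paired analysis was possible because the 2 groups share no animal numbers.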
